A study of Rattus norvegicus with 47 samples.

Results

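The comparison described here is the change in the effect of 2-methoxyacetic acid (MAA) on testis transcripts between a late period, 12 and 24 h after injection, and an early period, 4 and 8 h after injection. For each probe it is the mean of the MAA minus saline differences at 12 and 24 h, minus the mean of those at 4 and 8 h. All 47 arrays of the series entered it, 24 of the late period and 23 of the early period. The animals were male Sprague-Dawley rats aged 90 days, each given 1 intraperitoneal injection and killed with CO2. The treated groups MAA_4h, MAA_8h, MAA_12h and MAA_24h (6 animals each) received 650 mg/kg of MAA. The control groups, killed at the same times, were saline_4h with 5 animals and saline_8h, saline_12h and saline_24h with 6 each. RNA came from a piece of the right testis, labelled as parenchyma, of 1 animal per array, and a purchased universal rat reference RNA was hybridised with it in the other dye. The piece holds germ cells together with Sertoli, Leydig, myoid, vascular and blood cells. A lower signal in it cannot be told apart as fewer cells of a type or less RNA per cell.

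MAA is the acid to which the solvent ethylene glycol monomethyl ether is oxidised in the body, and it is known for killing spermatocytes in meiosis while sparing most other germ cells for a time. It is also known as an inhibitor of histone deacetylases, enzymes that remove acetyl groups from histones. In the seminiferous tubule, spermatogonia divide and enter meiosis as spermatocytes, which give round and then elongating spermatids. Sertoli cells surround and nourish them, and Leydig cells outside the tubule make testosterone.

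Values are M, the log2 ratio of testis over reference signal after loess normalization within each array. The labels name Cy5 as the testis dye. By its genes the RNA under the Cy3 heading is that of testis, and it is used here as such. With the dyes of the labels every sign below would turn. Relative to each array's median, 12 pachytene spermatocyte genes had a median of 0.80, and their median lay above 0 on 47 of 47 arrays. The 13 measured genes typical of lung, kidney, brain or heart had a median of -3.00. The median of these 13 lay above 0 on 0 of 47 arrays. The deposited series table was not used for results, since 39 of its 47 columns equal another array's deposited ratio. The Cy5 intensities of MAA_12h animal 27 are those of MAA_8h animal 15, and both were kept. The comparison called 225 probes with both, 82 without animal 15 and 306 without animal 27. Leaving out both together was not tried. Over arrays the median testis signal ran from 431 to 1750 intensity units, and between 43.5% and 97.2% of probes were above background. The number of arrays and the day-to-day variation limit the precision. The median standard error of the late minus early effect was 0.168 on the log2 scale.

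Animal 3 of MAA_4h and animal 44 of MAA_24h stood apart from their groups. Over the 225 probes called below, animal 3 lay nearer to the late MAA median than to the early MAA median for 129 probes. Animal 44 lay nearer to the early MAA median for 128 probes, and the next highest count among the other 22 treated animals was 69. Both were kept in the comparison, and the counts without them are given beside it. Whether these arrays or their labels were exchanged was not tested.

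The MAA effect differed between the late and the early period for 225 of 20500 probes, or 1.10%, by limma at a Benjamini-Hochberg adjusted p under 0.05. It was higher in the late period for 139 probes (0.678%) and lower for 86 (0.420%). At an unadjusted p under 0.05 there were 2659 probes. The higher probes stood for 109 named genes and the lower probes for 49. The difference was at least 1.5-fold for 47 higher and 45 lower probes, and at least 2-fold for 0 higher and 2 lower probes. Over all probes the median difference was 0.03.

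Without animals 3 and 44 the difference was called for 591 probes, 363 higher and 228 lower, among them 138 of the 139 higher and 86 of the 86 lower probes. A single animal moved the count by over 1.5 times in 5 cases, to 373 without animal 3, 390 without animal 44, 82 without animal 15 of MAA_8h, 102 without animal 36 of MAA_12h and 114 without animal 30 of saline_12h.

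The split between higher and lower calls, 61.8% higher here, depended on the scaling. After median centring in place of loess 79 of the 86 lower probes and 10 of the 139 higher ones were called again, and the split over all calls was 52 higher to 339 lower. With the testis channel alone these counts were 63 of 86 and 41 of 139, and the split was 62 to 175. With the deposited ratio they were 81 of 86 and 44 of 139, and the split was 44 to 164. With the deposited processed channels they were 82 of 86 and 58 of 139, with a split of 66 to 176, and after normexp 74 of 86 and 67 of 139, with a split of 67 to 84. All 86 lower probes kept their sign under median centring, the testis channel alone, the deposited ratio and the deposited processed channels, as did 124 of the 139 higher ones. All 4 called 58 of the 86 lower probes and 6 of the 139 higher ones. Day mattered as well, since without a term for hybridisation day 59 probes were called, 26 higher and 33 lower.

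The late effect itself was called for 1521 probes (7.42%), 1069 higher and 452 lower, and the early effect for 36 (0.176%), 30 higher and 6 lower. The split of the late calls was 153 to 594 after median centring, 928 to 814 with the testis channel alone, 470 to 615 with the deposited ratio and 466 to 611 with the deposited processed channels. Among the 139 higher probes the median MAA effect was -0.11 at 4 h, 0.09 at 8 h, 0.47 at 12 h and 0.53 at 24 h. Among the 86 lower probes it was 0.09 at 4 h, -0.10 at 8 h, -0.62 at 12 h and -0.55 at 24 h. These medians describe probes chosen on the same contrast. Set against the 4 h effect alone the late mean was called different for 190 probes, and against the 8 h effect alone for 2 probes. The difference of the 24 h and 12 h effects was called for 0 probes (0%, 1314 at an unadjusted p under 0.05), and that of the 8 h and 4 h effects for 0 (0%, 1291).

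**Figure D1:**
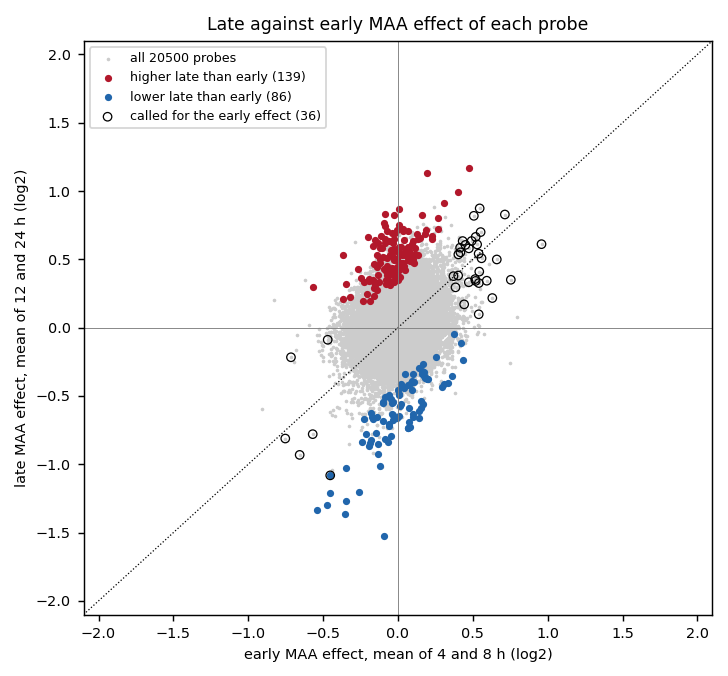
Each point is 1 probe, with its early MAA effect (mean of 4 and 8 h, log2) on the x axis and its late MAA effect (mean of 12 and 24 h, log2) on the y axis; the dotted line marks equal effects. The 139 red and 86 blue probes are those called for the difference and lie mostly near an early effect of 0, while 35 of the 36 circled early calls are not among them.

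The late effect lay furthest below the early effect in Gmcl1, Pou5f2 and Cks2. Each of the 3 was called in all 47 analyses that left out 1 animal and under the 4 other scalings. Gmcl1 encodes a BTB-domain protein related to the Drosophila gene germ cell-less, and the others are described below. Their promoter stretches, from 250 bases before to 50 bases after the RefSeq gene start on build GRCr8, are printed because these genes had the largest falls. That of Cd63 is printed as a rise for contrast, with the smallest adjusted p among named genes (tied with Lsr). Capitals mark the searched motifs on either strand (GC box GGGCGG, AP-1 site TGANTCA, E box CACGTG), and each sequence reads in the direction of its gene.
Gmcl1 (chr4:120737208-120737507, minus strand): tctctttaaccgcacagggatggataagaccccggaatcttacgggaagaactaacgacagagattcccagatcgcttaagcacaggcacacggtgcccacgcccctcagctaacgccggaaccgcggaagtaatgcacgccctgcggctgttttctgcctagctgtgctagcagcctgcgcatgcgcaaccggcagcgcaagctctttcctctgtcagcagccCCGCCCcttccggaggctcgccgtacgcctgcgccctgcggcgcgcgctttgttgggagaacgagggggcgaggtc
Pou5f2 (chr2:9643063-9643362, plus strand): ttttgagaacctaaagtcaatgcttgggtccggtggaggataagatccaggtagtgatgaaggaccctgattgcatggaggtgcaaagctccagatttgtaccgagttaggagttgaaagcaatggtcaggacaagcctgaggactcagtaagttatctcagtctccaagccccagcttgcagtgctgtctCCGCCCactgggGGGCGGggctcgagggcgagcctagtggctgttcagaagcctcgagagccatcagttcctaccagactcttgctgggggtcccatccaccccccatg
Cks2 (chr17:13727470-13727769, minus strand): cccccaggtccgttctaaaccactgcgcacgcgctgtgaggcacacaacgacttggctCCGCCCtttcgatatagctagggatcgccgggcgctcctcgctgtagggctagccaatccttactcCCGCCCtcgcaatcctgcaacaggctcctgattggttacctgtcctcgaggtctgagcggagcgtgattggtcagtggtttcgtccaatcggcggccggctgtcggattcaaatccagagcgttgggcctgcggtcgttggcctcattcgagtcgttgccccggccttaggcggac
Cd63 (chr7:1921894-1922193, plus strand): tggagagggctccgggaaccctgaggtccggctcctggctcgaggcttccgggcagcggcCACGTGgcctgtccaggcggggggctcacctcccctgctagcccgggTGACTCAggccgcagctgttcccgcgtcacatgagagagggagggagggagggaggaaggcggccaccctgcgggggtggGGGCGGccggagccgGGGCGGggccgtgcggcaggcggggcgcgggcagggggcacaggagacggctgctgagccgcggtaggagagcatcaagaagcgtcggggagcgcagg
The 3 falling genes hold a GC box and none of the other motifs searched, and Cd63 holds all 3 marked motifs. GC boxes stand in 58.2% of the 7940 measured genes with a promoter in the table.

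In Gmcl1 the late MAA animals had a lowest M of -1.38, a median of -0.08 and a highest of 1.32, against 1.01, 1.57 and 1.88 in late saline animals. The early MAA animals had 0.34, 1.37 and 1.73, against 0.96, 1.44 and 1.83 in early saline animals. The highest late MAA value, 1.32, was that of animal 44, and the lowest early MAA value, 0.34, that of animal 3. The other 11 late MAA animals reached at most 0.36, below every saline animal. The fitted MAA effect was -0.05 at 4 h, -0.13 at 8 h, -1.50 at 12 h and -1.55 at 24 h. The late minus early effect was -1.43 ± 0.26 (SE, limma adjusted p = 0.00443), and -1.71 without animals 3 and 44. Of its other probes, 1 was called as well (-0.45, adjusted p = 0.0386) and 1 was not (-0.64, adjusted p = 0.115).

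Pou5f2 encodes a POU-domain transcription factor known in mouse from spermatocytes before the meiotic divisions. Its M in late MAA animals had a lowest value of -1.02, a median of -0.39 and a highest of 0.49, against 0.76, 1.08 and 1.46 in late saline animals. Every late MAA animal lay below every late saline animal. In early MAA animals it had -0.27, 0.74 and 1.22, against 0.93, 1.06 and 1.59 in early saline animals, and these ranges overlapped. At 8 h taken singly they did not, with 0.29 to 0.79 in MAA_8h against 0.93 to 1.10 in saline_8h. The late effect was -1.37 (adjusted p = 1.28e-07), the early effect -0.36 (adjusted p = 0.491) and the difference -1.01 ± 0.18 (SE, limma adjusted p = 0.00443). Only 8 of 12 late MAA arrays were above background for this probe.

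Cks2 encodes a small protein that binds cyclin-dependent kinases and is needed in mouse for the first meiotic division. Late MAA animals had a lowest M of -1.19, a median of -0.36 and a highest of 0.38, against 0.70, 1.05 and 1.24 in late saline animals. The late ranges did not overlap. Early MAA animals had -0.53, 0.54 and 1.37, against 0.83, 1.04 and 1.31 in early saline animals. The lowest early value belonged to animal 3, and the 6 animals of MAA_8h all lay below those of saline_8h. The fitted effect was -0.06 at 4 h, -0.63 at 8 h, -1.50 at 12 h and -1.03 at 24 h. The difference was -0.92 ± 0.20 (SE, limma adjusted p = 0.0183).

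Thoc7, a subunit of the THO complex of messenger RNA export, showed a similar course with -0.36 as median M in late MAA animals and 0.60 in late saline animals. The medians were 0.47 in early MAA animals and 0.56 in early saline animals. Every late MAA animal, from -1.35 to -0.00, lay below every late saline animal, from 0.04 to 0.84. The difference was -0.89 ± 0.17 (SE, limma adjusted p = 0.0103). Cklf, a chemokine-like factor with a MARVEL domain, had -1.18, -0.45 and -0.09 as lowest, median and highest M in late MAA animals, against 0.61, 0.75 and 0.96 in late saline animals. Its values were -0.65, 0.10 and 0.94 in early MAA animals, against 0.53, 0.67 and 0.98 in early saline animals. As in Cks2 the MAA_8h animals already lay wholly below the saline_8h animals. The Cklf effect was -0.19 at 4 h, -0.76 at 8 h, -1.58 at 12 h and -1.02 at 24 h, and the difference was -0.83 ± 0.17 (SE, limma adjusted p = 0.0143).

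Or2b2, an olfactory receptor gene, was the sixth by size, with a difference of -0.80 (limma adjusted p = 0.0308). It was above background on 0 of 12 late MAA arrays, 2 of 12 late saline arrays, 4 of 12 early MAA arrays and 1 of 11 early saline arrays, so its size is not a measured fold. Its M ran from -0.82 to 0.55 (median -0.14) in late MAA animals, against -0.09 to 0.69 (median 0.38) in late saline animals. In early MAA animals it ran from -0.57 to 1.33 (median 0.23), against -0.50 to 0.29 (median 0.01) in early saline animals. These ranges overlapped in both periods. In all, 8 of the 225 called probes had a group with no array above background.

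**Figure D2:**
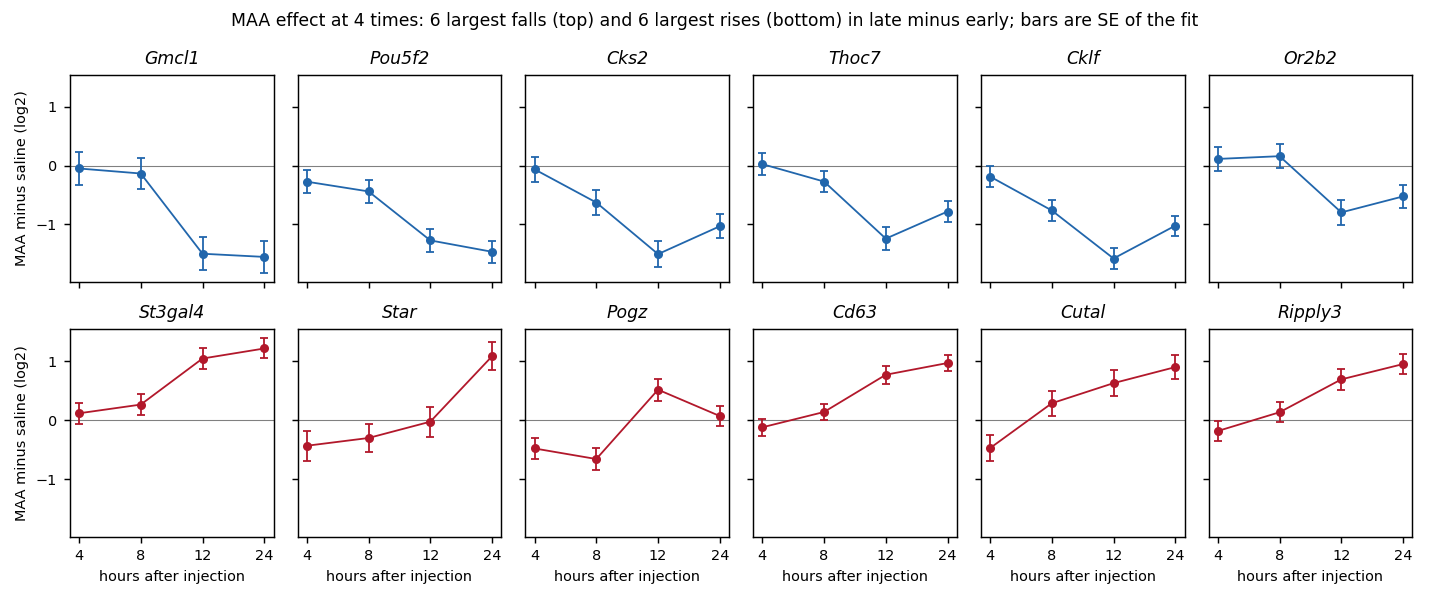
The MAA minus saline effect (log2, y axis) at 4, 8, 12 and 24 h (x axis) is shown for the 6 largest falls (top) and 6 largest rises (bottom) of the late minus early effect; points are fitted effects and bars 1 SE. Gmcl1 stood near 0 until 8 h and at -1.50 by 12 h, Cks2 and Cklf were at -0.63 and -0.76 at 8 h, and Star was above 0 at 24 h but not at 12 h.

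The other 9 of the 15 largest falls lay between -0.79 and -0.66. Ube2t, a ubiquitin-conjugating enzyme of the Fanconi anaemia pathway, differed by -0.79 ± 0.17 (SE, limma adjusted p = 0.0187), and its late MAA animals (-0.57 to 0.74) lay below the late saline animals (1.02 to 1.44). Bbs1, a subunit of the BBSome of cilia, differed by -0.77 (adjusted p = 0.00413), and Dnaaf4, a factor in the assembly of dynein arms, by -0.69 (adjusted p = 0.0347). A second Dnaaf4 probe was called at -0.50 (adjusted p = 0.035). Dr1, a repressor of transcription that binds the TATA-binding protein, differed by -0.67 (adjusted p = 0.0261), also without overlap of the late ranges. Mllt10, a cofactor of the histone methyltransferase Dot1l, differed by -0.66 (adjusted p = 0.0403), while its other probe gave 0.26 (adjusted p = 0.733). Without single animals Mllt10 was called in 14 of 47 analyses.

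Snx14, a sorting nexin, differed by -0.77 (limma adjusted p = 0.0293) with a second probe at -0.27 (adjusted p = 0.644). Efcab14, an EF-hand protein, differed by -0.74 (adjusted p = 0.00443) with a second probe at -0.00 (adjusted p = 0.993). Gmip differed by -0.72 (adjusted p = 0.0328) and Rdh16, a retinol dehydrogenase, by -0.67 (adjusted p = 0.0438). These last 2 were dim: Gmip was above background on 18 and Rdh16 on 13 of 47 arrays, and neither late effect was called (adjusted p = 0.0505 and 0.371). For Dnaaf4 no MAA_12h array was above background, and for Rdh16 no MAA_24h or saline_8h array, so the sizes of these 2 differences are not measured folds.

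The genes that rose furthest were St3gal4, Star, Pogz, Cd63, Cutal and Ripply3, of which Pogz was called under the 4 other scalings and the others under 1 to 3 of them with the sign kept. St3gal4 encodes a sialyltransferase of the Golgi. Its M in late MAA animals had a lowest value of 0.10, a median of 0.80 and a highest of 1.35, against -0.74, -0.38 and -0.19 in late saline animals. The late ranges did not overlap. Early MAA animals had -0.45, -0.01 and 0.62, against -0.45, -0.30 and -0.10 in early saline animals. The lowest late and highest early values of treated animals were those of animals 44 and 3. The effect was 0.12 at 4 h, 0.27 at 8 h, 1.05 at 12 h and 1.22 at 24 h, and the difference was 0.94 ± 0.16 (SE, limma adjusted p = 0.00413).

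Cd63 encodes a tetraspanin of late endosomes and lysosomes. Late MAA animals had a lowest M of -1.53, a median of -1.03 and a highest of -0.52, against -1.98, -1.84 and -1.68 in late saline animals. As in St3gal4 the late ranges did not overlap. Early MAA animals had -2.05, -1.65 and -1.04, against -1.98, -1.69 and -1.23 in early saline animals. The difference was 0.86 ± 0.14 (SE, limma adjusted p = 0.00386). In the fit it consisted of a late minus early change of 0.43 within MAA animals and of -0.44 within saline animals, values that depend on the day term. Not adjusted for day, the mean M was -1.01 late and -1.66 early in MAA animals, against -1.83 and -1.65 in saline animals.

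Star encodes the protein that moves cholesterol into mitochondria for steroid synthesis. Late MAA animals had a lowest M of 0.19, a median of 1.39 and a highest of 2.00, against 0.10, 1.06 and 1.23 in late saline animals. Early MAA animals had 0.12, 0.62 and 1.24, against 0.56, 0.95 and 1.90 in early saline animals. Only the MAA_24h animals all lay above their saline group, since the effect was -0.44 at 4 h, -0.30 at 8 h, -0.03 at 12 h and 1.09 at 24 h. The difference was 0.90 ± 0.23 (SE, limma adjusted p = 0.0449), the late effect alone was 0.53 (adjusted p = 0.0732), and 14 of the 47 analyses without 1 animal called the difference.

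Pogz encodes a zinc finger protein of chromatin with a pogo transposase domain. Late MAA animals had a lowest M of -0.85, a median of -0.13 and a highest of 0.40, against -1.15, -0.47 and 0.08 in late saline animals. Early MAA animals had -1.17, -0.55 and -0.35, against -0.38, -0.17 and 0.24 in early saline animals. The treated animals thus lay below saline ones at 4 and 8 h without overlap and above them at 12 h without overlap, and the groups overlapped at 24 h. The difference was 0.86 ± 0.17 (SE, limma adjusted p = 0.0116). The probe was above background on 18 of 47 arrays and on 0 of MAA_8h, so the size of its difference is not a measured fold, and a second Pogz probe gave -0.13 (adjusted p = 0.631).

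Cutal differed by 0.86 (limma adjusted p = 0.0293) and Ripply3, a corepressor of T-box factors, by 0.85 (adjusted p = 0.00823). Cutal had a lowest M of -2.06, a median of -0.76 and a highest of -0.28 in late MAA animals, against -2.26, -1.26 and -0.75 in late saline animals. In the early period it had -1.96, -1.35 and -0.43 in MAA animals, against -1.61, -1.32 and -0.22 in saline animals. Ripply3 had -0.81, -0.53 and 0.21 in late MAA animals, against -1.79, -1.09 and -0.54 in late saline animals, and -1.75, -1.09 and -0.69 in early MAA animals, against -1.53, -1.15 and -0.28 in early saline animals. For both genes the ranges overlapped in each period, and only the MAA_24h animals lay wholly above their saline group. The fitted late minus early change was 0.06 in the MAA arm, against -0.80 in the saline arm, for Cutal, and 0.31 against -0.54 for Ripply3. These arm values depend on the day term. Not adjusted for day, the mean M of Cutal was -0.80 late and -1.35 early in MAA animals, against -1.37 and -1.18 in saline animals. For Ripply3 it was -0.43 and -1.16 in MAA animals, against -1.16 and -1.09 in saline animals.

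**Figure D3:**
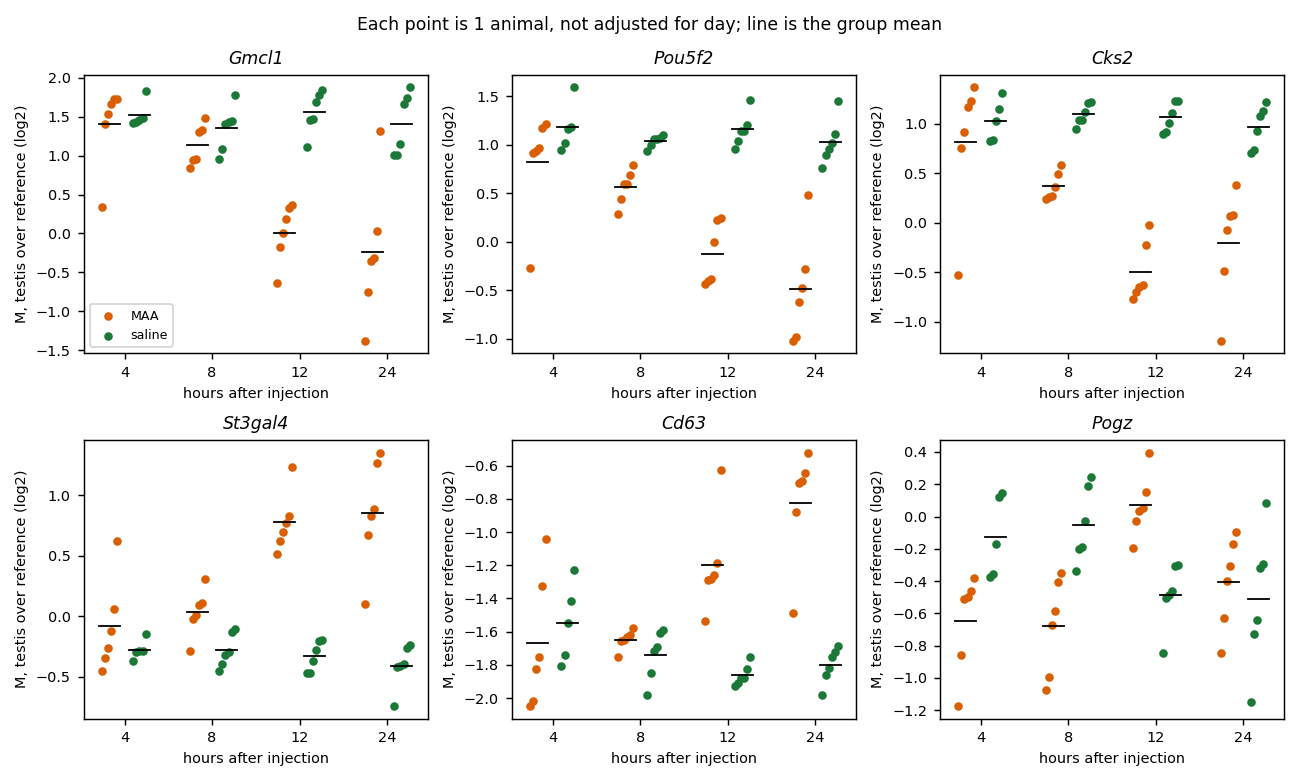
M (log2 of testis over reference signal, y axis) is shown for each animal at 4, 8, 12 and 24 h (x axis), MAA in orange left of saline in green, with a line at the group mean. Gmcl1, Pou5f2 and Cks2 are low in MAA animals at 12 and 24 h, St3gal4 and Cd63 are high then, and Pogz in MAA animals lies below saline at 4 and 8 h; the lone low MAA_4h point in the upper panels is animal 3.

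The other 9 leading rises lay between 0.71 and 0.78. They were Ocm (0.78), which encodes the calcium-binding protein oncomodulin, Avil (0.76), an actin-binding protein above background on only 18 of 47 arrays, and Id4 (0.76), an inhibitor of basic helix-loop-helix factors that marks spermatogonial stem cells in mouse. Tuba1a (0.74) encodes an alpha tubulin, and Nup107 (0.73) a subunit of the nuclear pore. The alpha tubulin genes are closely alike, and cross-hybridisation between them was not tested. Eif4ebp2 (0.72) encodes a repressor of translation that binds eIF4E, Tcf20 (0.71) a transcriptional coregulator and Cd40 (0.71) a receptor of the tumour necrosis factor family. The list closes with Ccdc43 (0.73), and the adjusted p of the 9 ran from 0.0106 for Tuba1a to 0.0349 for Eif4ebp2. The 4 other Tcf20 probes lay between -0.08 and 0.48 and none was called (adjusted p from 0.416 to 0.918). The second Cd40 probe gave 0.21 (adjusted p = 0.778).

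Within the arms fewer probes passed than for the difference. The change from early to late was called for 10 probes (0.0488%) among MAA animals, 5 higher and 5 lower, and for 0 (0%, 1341 at an unadjusted p under 0.05) among saline animals. The 10 included Ube2t (-0.89), Efcab14 (-0.71), Uck1 (-0.53), a uridine-cytidine kinase, Slc22a17 (0.64), Tmem53 (0.54), Fem1b (0.50) and Higd1a (0.50), chosen here as the only named ones, and all adjusted p were 0.0467 except that of Tmem53, 0.0118. Over the 86 lower probes the median fitted change was -0.41 in the MAA arm and 0.19 in the saline arm, and over the 139 higher probes 0.31 and -0.20. In 78 of the 86 lower and 129 of the 139 higher probes the saline arm thus moved to the other side, which the choice of probes favours. The treated and saline animals of a period lie on partly different days. Each of the 8 days with both arms held animals of 1 period. Within an arm, late and early animals thus shared a day only on the 2 days with MAA animals only and the 2 with saline animals only. The arm values depend on the day term, and without it 847 probes were called in the MAA arm.

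Among the 36 probes called for the early effect, the late effect had the same sign for 36 and was called the same way for 29, which are 80.6% of the early calls and 1.91% of the 1521 late calls. The difference was called for 1 of the 36, against 1.10% of all probes, and a missed call does not show that an effect stayed the same. It was the unnamed probe_18961 with a late effect of -1.08 and an early effect of -0.45. Over the 30 early rises the median was 0.52 in the late period and 0.52 in the early period. The early and late effects come from different animals and share the day terms.

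The 6 named early calls with the smallest p were Dpf1, Rbm38, Ctnnbip1, P3h1, Cotl1 and Limk1. Dpf1, a subunit of neuronal BAF chromatin remodelling complexes, had a late effect of 0.35 and an early effect of 0.75 (limma adjusted p = 0.0171 and 2.89e-05). Its M had a lowest value of -0.78, a median of -0.21 and a highest of 0.10 in late MAA animals, against -1.06, -0.69 and 0.06 in late saline animals. In early MAA animals it had -0.28, 0.17 and 0.58, against -0.81, -0.52 and -0.25 in early saline animals, and treated animals lay above saline ones without overlap at 4, 8 and 12 h. The difference of -0.40 was not called (adjusted p = 0.096). The probe was above background on 12 of 12 early MAA arrays but on 4 of 11 early saline and 8 of 12 late saline arrays. The size of its early effect is therefore uncertain.

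Rbm38, an RNA-binding protein and p53 target, had a late effect of 0.34 and an early effect of 0.59, with a difference of -0.25 (limma adjusted p = 0.322). Its early MAA animals ran from -0.16 to 0.43 (median 0.25), against -0.87 to -0.18 (median -0.28) in early saline animals, and its late MAA animals from -0.31 to 0.17 (median -0.07), against -0.77 to -0.14 (median -0.47) in late saline animals. P3h1, a prolyl 3-hydroxylase of collagen, was likewise separated in the early period, with 0.01 to 0.26 (median 0.18) in MAA animals, against -0.59 to -0.09 (median -0.26) in saline animals. In the late period P3h1 ran from -0.30 to 0.29 (median 0.15) in MAA animals, against -0.53 to -0.01 (median -0.24) in saline animals, and the ranges overlapped.

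Ctnnbip1, an inhibitor of beta-catenin, had a late effect of 0.61 and an early effect of 0.53 (limma adjusted p = 4.65e-05 and 0.0088). Its M ran from 0.09 to 0.97 (median 0.46) in late MAA animals, against -0.52 to 0.32 (median -0.11) in late saline animals. It ran from -0.01 to 0.70 (median 0.39) in early MAA animals, against -0.33 to 0.19 (median -0.14) in early saline animals. The ranges overlapped in both periods, but the treated animals lay above saline ones at 4, 8 and 12 h taken singly.

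Cotl1, a coactosin-like protein of actin filaments, had a late effect of 0.83 and an early effect of 0.71, and its treated animals lay above saline ones at each of the 4 times and over the late period as a whole. Its M ran from -2.58 to -2.08 (median -2.27) in late MAA animals, against -3.64 to -2.81 (median -3.12) in late saline animals. It ran from -2.98 to -0.82 (median -2.68) in early MAA animals, against -3.77 to -2.82 (median -3.35) in early saline animals. The value of -0.82 was that of animal 3, which enters the early effect, and the other MAA_4h animals lay between -2.98 and -2.70. Limk1, a kinase that phosphorylates cofilin, had 0.54 in both periods, with -0.22 to 0.82 (median 0.27) in late MAA animals, against -0.55 to 0.10 (median -0.18) in late saline animals. It had -0.15 to 0.65 (median 0.31) in early MAA animals, against -0.54 to 0.07 (median -0.19) in early saline animals. The differences of Ctnnbip1, P3h1, Cotl1 and Limk1 were 0.08, -0.14, 0.11 and 0.00 with standard errors of 0.12, 0.11, 0.17 and 0.13, and none was called.

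In 17 of the 225 called probes the late and early effects had opposite signs with an unadjusted p under 0.05 each. The choice of probes by their difference favours opposite signs, and the same count over all probes was not made. Of the 17, 11 were below saline early and above it late. The 6 named ones with the smallest p all belonged to those 11. Besides Pogz these were Mapkapk3, a kinase activated by p38, with a late effect of 0.36 and an early effect of -0.20, and Ctsk, the lysosomal protease cathepsin K, with 0.34 and -0.20. Slc7a11, the cystine and glutamate exchanger, had 0.32 and -0.35, Eef1a2, a translation elongation factor, 0.37 and -0.24, and Ccl26, a chemokine gene, 0.23 and -0.16. Median centring turned the sign of the Ccl26 difference. None of the 6 early effects was called after adjustment (limma adjusted p from 0.064 for Pogz to 0.634).

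The animals' values of the 5 genes other than Pogz overlapped between MAA and saline in both periods. Mapkapk3 ran from 0.31 to 0.89 (median 0.80) in late MAA animals, against 0.13 to 0.54 (median 0.37) in late saline animals, and from -0.20 to 0.73 (median 0.12) in early MAA animals, against 0.05 to 0.56 (median 0.37) in early saline animals. Ctsk ran from 0.71 to 1.34 (median 0.99) in late MAA animals, against 0.34 to 1.09 (median 0.69) in late saline animals, and from 0.32 to 0.91 (median 0.58) in early MAA animals, against 0.58 to 1.28 (median 0.84) in early saline animals. Slc7a11 ran from -0.05 to 1.06 (median 0.61) in late MAA animals, against -0.23 to 0.74 (median 0.18) in late saline animals, and from -0.38 to 0.48 (median 0.02) in early MAA animals, against 0.00 to 0.89 (median 0.37) in early saline animals. In all 5 genes the treated median stood below the saline one early and above it late, which the rule that chose them favours. Eef1a2 ran from -1.08 to -0.10 (median -0.57) in late MAA animals, against -1.34 to -0.32 (median -0.87) in late saline animals, and from -1.70 to -0.45 (median -0.85) in early MAA animals, against -0.90 to -0.25 (median -0.67) in early saline animals. Ccl26 ran from 0.93 to 1.81 (median 1.33) in late MAA animals, against 0.90 to 1.18 (median 1.02) in late saline animals, and from 0.56 to 1.44 (median 1.04) in early MAA animals, against 0.88 to 1.25 (median 1.08) in early saline animals. In some of these genes the group means stood apart at only 1 of the 2 late times or more at 1 than at the other. The difference of the 24 h and 12 h effects was called for 0 probes. Not adjusted for day, mean M of Slc7a11 was 0.26 in MAA_12h against 0.25 in saline_12h, and 0.79 in MAA_24h against 0.17 in saline_24h. That of Eef1a2 was -0.55 against -1.05 at 12 h, and -0.51 against -0.66 at 24 h.

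Of the 12 hybridisation days 8 held both arms of 1 time, and the MAA minus saline differences within those days gave 4 late and 4 early values per gene. Animal 3, on a day with MAA animals only, and animal 44, on a day without saline_24h animals, did not enter these values. On that day of animal 44 the 12 h difference rests on 1 MAA animal against 2 saline animals. In 26 of the 30 leading genes, 13 rises and 13 falls, the 4 late values lay wholly to one side of the 4 early values, against 6.63% of all 20500 probes. The exact permutation test over the 70 splits of the days, two-sided, can give no p below 0.0286, and 26 genes had that p (Benjamini-Hochberg adjusted p = 0.033 over the 30 genes). The 30 were chosen from the same arrays, so these p are no separate evidence. The genes whose days overlapped were Star, Cd40, Cklf and Dnaaf4, with exact p of 0.0571 or 0.0857. In Gmcl1 the within-day differences were between -2.12 and -1.41 late and between -0.47 and 0.24 early, and in Cd63 between 0.63 and 1.19 late and between -0.20 and 0.18 early.

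**Figure D4:**
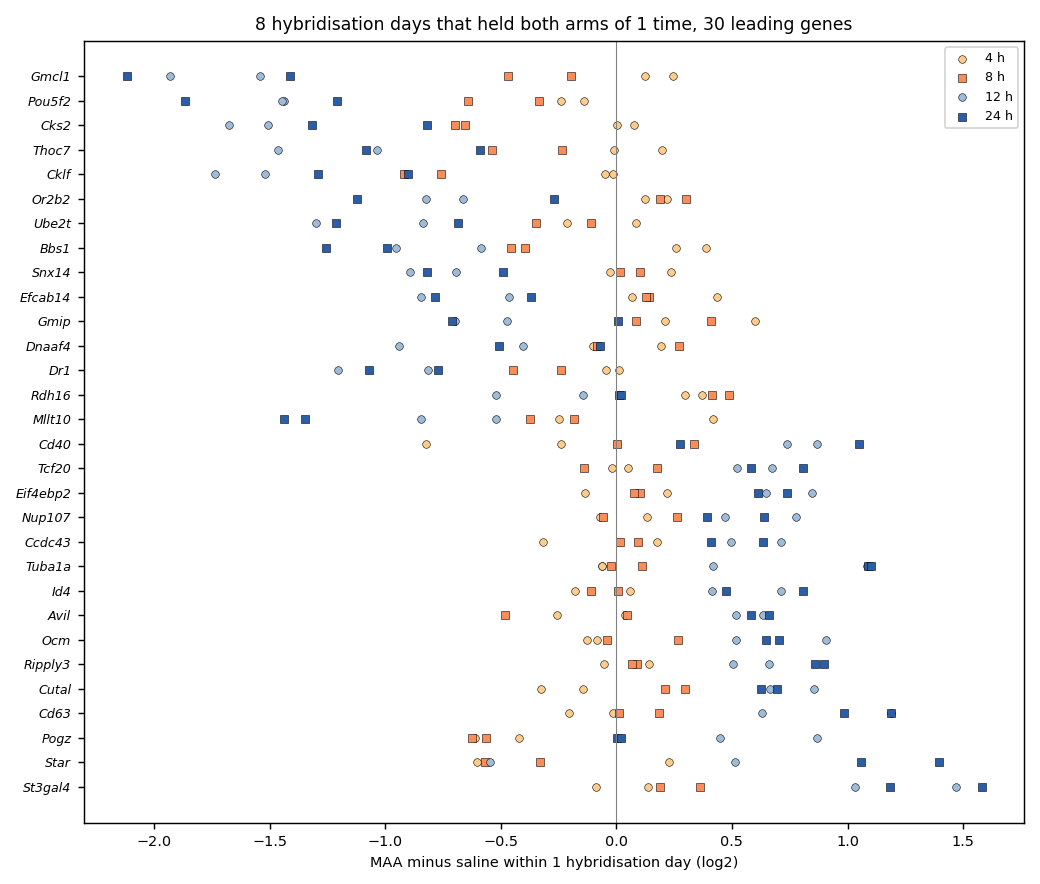
Each symbol is the MAA minus saline difference (log2, x axis) within 1 hybridisation day for the 15 largest falls (from the top) and the 15 largest rises. Blue symbols are the 4 days of 12 and 24 h and orange symbols the 4 days of 4 and 8 h; in 26 of 30 genes the colours do not mix.

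Of 37 gene lists, which held 696 measured genes, 16 had a called member, 18 genes higher and 7 lower. Per gene 1.12% of 9644 were called higher and 0.477% lower. The median difference over all genes was 0.04, against -0.04 once arrays were centred on the median and 0.01 in the testis channel by itself. The sign of the median was the same under these 3 scalings in 15 of the 37 lists, 9 above 0 and 6 below, so list medians are given with more than 1 scaling.

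In the lists of meiotic cells 4 genes were called lower and 0 higher. Pachytene spermatocyte markers had 3 of 12 measured genes called lower (Gmcl1, Pou5f2 and Mllt10) and 0 higher. The lists were chosen with earlier results of these data known, so these calls are no separate evidence about pachytene cells. Of the 12, 4 had a difference above 0, the highest being Ldhc at 0.38. The list median was -0.04, -0.12 in the testis channel by itself and -0.11 after median centring. Genes of the meiotic divisions had 1 of 18 called lower (Cks2), with a median of -0.11, -0.14 and -0.35 in the same order. In that list Bub1b, a kinase of the spindle checkpoint, had a difference of -0.66 (limma adjusted p = 0.061), and Cdk1, the kinase that drives cell division, -0.45 (adjusted p = 0.122). The synaptonemal complex, the protein ladder that joins paired chromosomes, had 3 of 12 genes measured and 0 called. Sycp2, Sycp1 and Sycp3 had differences of -0.47, -0.46 and -0.31 (adjusted p = 0.0775, 0.137 and 0.37), and their late effects of -0.55, -0.62 and -0.49 were called (adjusted p = 0.000683, 0.00074 and 0.00542). Meiotic cohesin and break repair genes had 0 of 12 called and a median of 0.09, -0.26 after median centring, with Exo1, an exonuclease of break repair, lowest at -0.56 (adjusted p = 0.0509). DNA replication genes had 0 of 19 called and a median of -0.06, -0.08 in the testis channel by itself and -0.22 after median centring.

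In the lists of other germ cells 2 genes were called higher and 0 lower. Of 17 elongating spermatid markers all 17 had a difference above 0, with a median of 0.33, which was 0.08 with the testis channel alone and -0.02 after median centring. Of them 1 was called, Hils1, a spermatid linker histone (0.45, limma adjusted p = 0.0408), which is also the 1 called of 9 linker and replacement histones. Tekt2, a tektin of the sperm tail, had 0.41 (adjusted p = 0.0515) and Tnp2, a transition protein of spermatid chromatin, 0.37 (adjusted p = 0.175). Spermatogonia markers had 1 of 15 called, Id4, with a median of 0.14, 0.11 in the testis channel by itself and 0.30 after median centring. In that list Uchl1, a deubiquitinating enzyme of spermatogonia, had 0.53 (adjusted p = 0.109). Round spermatid markers had 0 of 14 called and a median of 0.10, -0.16 after median centring.

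In the somatic and cholesterol lists 4 genes were called higher and 0 lower, against 1.12% of all genes higher and 0.477% lower. Sertoli cell markers had 2 of 22 called higher. These were Inha, the inhibin alpha subunit (0.59, limma adjusted p = 0.0187), and Aard (0.55, adjusted p = 0.0285), and Ctsl, the protease cathepsin L, had 0.58 (adjusted p = 0.0707). The Sertoli median was 0.07, 0.05 in the testis channel by itself and 0.00 after median centring. Leydig cell and steroidogenic genes had 1 of 15 called (Star), and Scp2, a sterol carrier, had 0.38 (adjusted p = 0.0698) and Cyp17a1, an enzyme of androgen synthesis, 0.47 (adjusted p = 0.23). Cholesterol synthesis had 1 of 16 called, Fdps, farnesyl diphosphate synthase (0.41, adjusted p = 0.043). Peritubular myoid (0 of 14), endothelial (0 of 12), macrophage and leukocyte (0 of 21), junction and blood-testis barrier (0 of 21) and extracellular matrix genes (0 of 27) had no call, with medians from 0.10 to 0.14 that lay between -0.08 and 0.06 after median centring. In these lists Ctnna1, which links cadherins to actin, had 0.41 (adjusted p = 0.094) and Sparc, a matrix glycoprotein, 0.46 (adjusted p = 0.108).

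Among stress and metabolic lists, oxidative stress and glutathione genes had the most calls, 6 of 35, all higher. Prdx4, a peroxiredoxin, rose by 0.61 ± 0.10 (SE, limma adjusted p = 0.00388) and Hmox1, which degrades haem, by 0.61 ± 0.13 (SE, adjusted p = 0.0154). The effect on Hmox1 was 0.91 late and 0.30 early. The others were Slc7a11, Gsta4, Gstp1 and Prdx2, with glutathione transferases in Gsta4 and Gstp1. The list median was 0.26, 0.16 with the testis channel alone and -0.03 after median centring, and 30 of the 35 lay above 0. Of the 6, Hmox1 and Slc7a11 were called under 3 of 4 other scalings, Prdx4 under 2, Gstp1 under 1 and Gsta4 and Prdx2 under 0, all with the sign kept. Glycolysis and lactate genes had 2 of 25 called, Tpi1, triosephosphate isomerase (0.43, adjusted p = 0.0244), and Ldhb, a lactate dehydrogenase subunit (0.45, adjusted p = 0.0307), with a median of 0.26, 0.06 with the testis channel alone and -0.07 after median centring. S100 proteins and annexins had 2 of 19, S100a10 (0.69, adjusted p = 0.0328) and Anxa5, which binds phosphatidylserine (0.53, adjusted p = 0.0386).

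The remaining lists had 1 call or none. Those with 1 were the apoptosis regulators (1 of 38, somatic cytochrome c Cycs, 0.50, limma adjusted p = 0.0218), heat shock proteins and co-chaperones (1 of 27, Dnaja4, 0.52, adjusted p = 0.0323) and inflammation and cytokines (1 of 32, Cklf, lower). Also with 1 were fatty acid genes (1 of 29, Cpt2, a mitochondrial carnitine palmitoyltransferase, -0.39, adjusted p = 0.0476) and the respiratory chain and ATP synthase (1 of 23, Atp5f1c, -0.48, adjusted p = 0.0447). Cyct, the testis form of cytochrome c, had -0.38 (adjusted p = 0.0909) beside the called rise of Cycs. No member was called among p53 targets (20 measured), immediate-early genes (27), glucocorticoid-responsive genes (20), clock genes (13), histone deacetylases and lysine acetylation genes (20), chromatin remodelling subunits (16), unfolded protein response genes (24), ribosomal proteins (26), proteasome subunits (28) or calcium handling genes (24). Their medians lay between -0.07 and 0.20, and between -0.29 (proteasome subunits) and 0.13 (clock genes) after median centring, which turned the sign in several. The highest was that of the ribosomal proteins, which was -0.10 in the testis channel by itself and -0.16 after median centring.

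Markers of blood and epididymis were also followed, since such cells can come with the piece. Of 6 blood markers and 5 epididymis markers 0 were called. The blood median was -0.02, -0.01 in the testis channel by itself and -0.15 after median centring, and the epididymis median 0.05, 0.07 and -0.15 in the same order. The log2 summed testis signal of the blood list was 13.14 to 13.97 (median 13.37) in late MAA animals, against 13.03 to 13.40 (median 13.23) in late saline animals. In the early period it was 13.03 to 13.61 (median 13.24) in MAA animals, against 13.04 to 13.35 (median 13.22) in saline animals. For the epididymis list it was 14.25 to 14.68 (median 14.53) in late MAA animals, against 14.10 to 14.59 (median 14.27) in late saline animals. In the early period it was 14.17 to 14.62 (median 14.33) in MAA animals, against 13.80 to 14.56 (median 14.28) in saline animals. The part of these cells in the results was not tested.

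**Figure D5:**
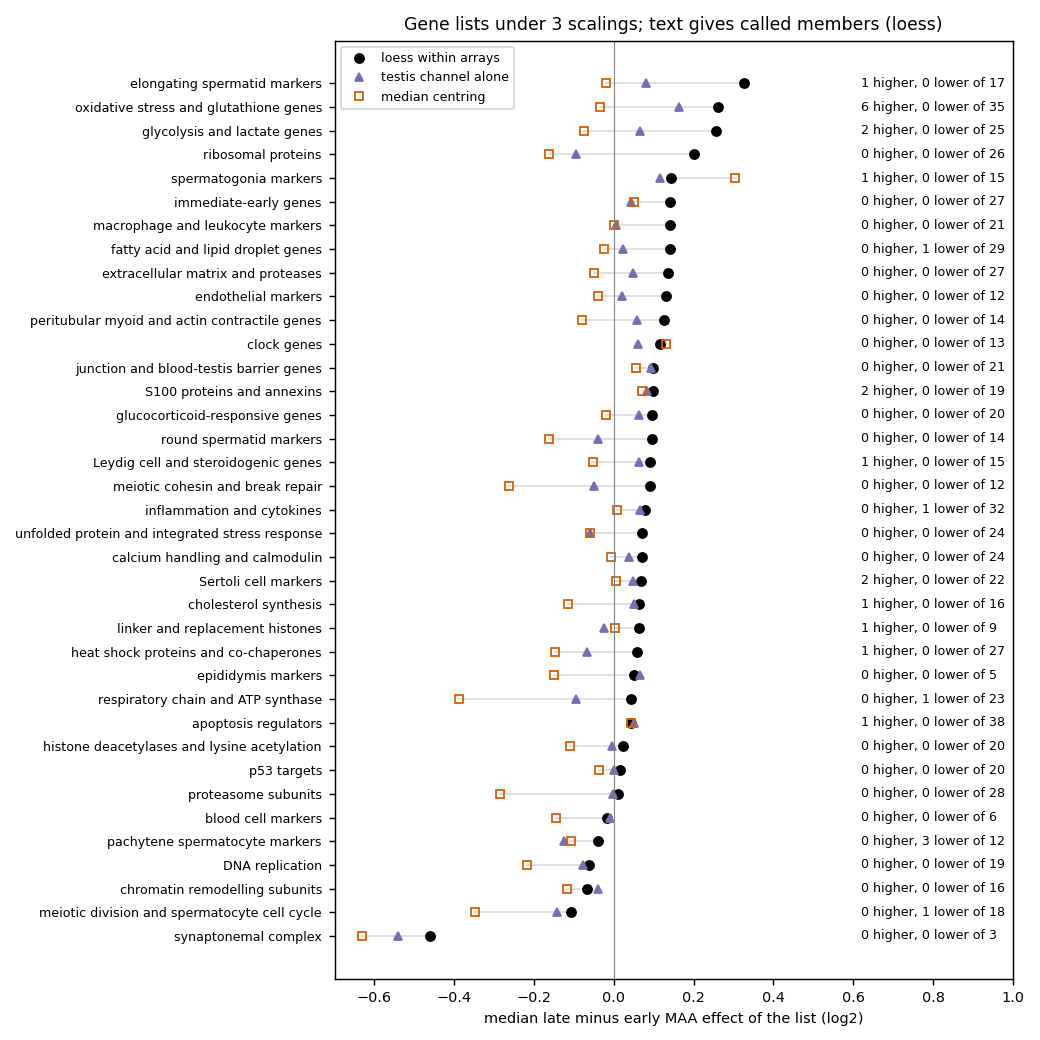
For each of 37 gene lists the median late minus early MAA effect of its measured genes (log2, x axis) is drawn after loess (black), with the testis channel alone (triangles) and after median centring (open squares), with the called members given as text. The synaptonemal complex lies at -0.46 and stays below 0 under the 3 scalings, while oxidative stress and glutathione genes lie at 0.26, 0.16 and -0.03.

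Promoters of 43 genes called lower, 89 called higher and 7940 measured genes were searched on both strands for 6 motifs. The MYB motif AACNGTT stood in 6.98% of the lower, 1.12% of the higher and 3.43% of all genes, and its 3 holders among the lower genes, named after the search, were Zmynd10, Nxt1 and Cutc. The E box CACGTG stood in 2.33%, 16.9% and 9.13%, the AP-1 site TGANTCA in 2.33%, 8.99% and 5.44%, and the CRE TGACGTCA in 0%, 3.37% and 2.77%. The GC box GGGCGG stood in 65.1%, 64% and 58.2%, and the TATA box TATAAA in 2.33%, 4.49% and 8.48%. No test was made of these shares, and a match is a stretch of letters and not a known site.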

How the data were processed

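Testis RNA of 47 rats and a universal rat reference RNA were hybridised in opposite dyes on 2-colour oligonucleotide arrays of 22573 spots. Per the file headers, the authors deposited for each array the raw intensity and a processed intensity of each dye, a log2 ratio and flags. Spots were quantified with ImaGene, per the file headers (ImageneFlag), and the method of the authors' normalization is not given in the sources used here.

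M was log2 of raw Cy3 over raw Cy5 intensity, normalized by loess within each array with limma 3.58.1 in R 4.3.3 (control spots at weight 0). No background values were at hand, so none were subtracted, although normexp with an offset of 50 was tried. The 2073 spots with no processed value were not tested, which left 20500 probes. Of these 12736 carried 1 gene symbol, 5 several and 7759 none. Gene lists used the brightest probe of a gene. A limma model held the 8 groups and the 12 hybridisation days (28 residual degrees of freedom), and p-values were adjusted by Benjamini-Hochberg over the 20500 probes with a threshold of 0.05. Of the days 8 held both arms of 1 time, 2 held MAA and 2 saline animals only. The labels give 1 animal per array, and p-values measure the spread between these animals.

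The 15 largest rises and falls with 1 symbol, up to 3 members of each list by p, further called members, and up to 6 early and 6 sign-changing genes by p were named, with exceptions marked. Members and lists were chosen with earlier results of these data known. The model was tested on simulated arrays of 20500 probes: for the late minus early effect, it recovered 29 of 100 probes changed by 0.5 on the log2 scale and 87 of 100 changed by 1, with 7 calls among unchanged probes. Promoters came from RefSeq (GRCr8) and were found for 89 of 109 genes called higher and 43 of 49 called lower.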

Additional observations from a re-analysis of the deposited data

Results flagged for a closer look

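Among 184 groups of animals over 23 genes, 14 held an animal far from the rest by Dixon's test, where chance alone marks about 5% of groups. Animal 3 of MAA_4h accounted for 5. It had an M of 0.34 in Gmcl1 (other animals of the group 1.41 to 1.73), -0.27 in Pou5f2 (0.92 to 1.22), -0.53 in Cks2 (0.75 to 1.37), -0.65 in Cklf (0.61 to 0.94) and -0.82 in Cotl1 (-2.98 to -2.70). Animal 44 of MAA_24h had -1.49 in Cd63 (others -0.88 to -0.52) and -2.58 in Cotl1 (-2.33 to -2.22). The remaining 7 were single values. Among MAA animals they were -0.43 in Cutal (MAA_8h animal 24), -1.75 in Ripply3 (MAA_8h animal 23), -1.35 in Thoc7 (MAA_24h animal 40) and 1.33 in Or2b2 (MAA_4h animal 8). Among saline animals they were -0.74 in St3gal4 (saline_24h animal 38), 1.83 in Gmcl1 (saline_4h animal 6) and -0.25 in Eef1a2 (saline_8h animal 13).

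The MAA effect differed between the late and the early period by limma's test of the difference in 52 named genes. The differences among the largest rises were 0.94 in St3gal4, 0.90 in Star, 0.86 in Pogz, 0.86 in Cd63, 0.86 in Cutal, 0.85 in Ripply3, 0.78 in Ocm, 0.76 in Avil, 0.76 in Id4, 0.74 in Tuba1a, 0.73 in Ccdc43, 0.73 in Nup107, 0.72 in Eif4ebp2, 0.71 in Tcf20 and 0.71 in Cd40. Among the largest falls they were -1.43 in Gmcl1, -1.01 in Pou5f2, -0.92 in Cks2, -0.89 in Thoc7, -0.83 in Cklf, -0.80 in Or2b2, -0.79 in Ube2t, -0.77 in Bbs1, -0.77 in Snx14, -0.74 in Efcab14, -0.72 in Gmip, -0.69 in Dnaaf4, -0.67 in Dr1, -0.67 in Rdh16 and -0.66 in Mllt10. Among list members they were 0.69 in S100a10, 0.66 in Slc7a11, 0.61 in Prdx4, 0.61 in Hmox1, 0.59 in Inha, 0.59 in Gstp1, 0.55 in Aard, 0.53 in Anxa5, 0.52 in Dnaja4, 0.50 in Cycs, 0.45 in Hils1, 0.45 in Prdx2, 0.45 in Gsta4, 0.45 in Ldhb, 0.43 in Tpi1, 0.41 in Fdps, -0.39 in Cpt2 and -0.48 in Atp5f1c. Among genes whose effect changed sign they were 0.61 in Eef1a2, 0.55 in Mapkapk3, 0.54 in Ctsk and 0.39 in Ccl26.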

How the results depend on the processing

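The late minus early effect was called for 225 probes, against 391 after median centring, 59 with no day term, 136 with day as a random block (correlation 0.0686), 92 on days with both arms, 485 among probes above background on 0.5 or more of the arrays and 591 without animals 3 and 44. The counts were 2 against the 8 h effect alone, 16 for 12 h and 30 for 24 h against the early mean, and 0 for the series table (1181 at an unadjusted p under 0.05) and, added after seeing the data, for the reference channel alone (1516). The late effect was called for 747 probes after median centring and 0 with the series table. The early effect was called for 88 with the testis channel alone, 0 with the series table, 93 with no day term, 95 with the random block, 15 on days with both arms and 58 above background. Calls in the MAA arm numbered 0 after median centring, with the processed channels and with the series table, 1 after scaling and with array weights, 847 with no day term, 768 with the random block, 488 on days with both arms, 70 above background, 46 with a trended robust spread and 286 without animals 3 and 44. The saline arm had 5 calls on days with both arms. On those days a change within an arm cannot be told apart from day. Without single animals the counts ran from 82 to 390 for the late minus early effect, 1160 to 1652 for the late effect, 13 to 45 for the early effect (13 without animal 24 of MAA_8h), 0 to 122 in the MAA arm and 0 to 1 in the saline arm.

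Of 2687 pairs of a named probe and a setting, 2090 kept direction and side of the threshold, 401 lost the call, 108 gained it, 75 moved and 13 changed sign. The signs turned with the series table in Star (-0.22), Cd63 (-0.10), Or2b2 (0.11), Snx14 (0.031), Gmip (0.21), Rdh16 (0.0068), Aard (-0.21), Slc7a11 (-0.18), Dnaja4 (-0.0327), Ldhb (-0.0487), Mapkapk3 (-0.18) and Ctsk (-0.16), and with median centring in Ccl26 (-0.033). The cause was not tested, though 39 of the table's 47 columns equal another array. Pairing by animal number was not possible, because animal numbers do not recur between groups. Hybridisation day, which ties MAA and saline animals on 8 days, was used instead.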
